A study of Mus musculus with 28 samples.

Results

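Group 2 innate lymphoid cells (ILC2) sorted from the lungs of papain-treated mice were compared with ILC2 sorted from untreated mice. The comparison used 6 of the 28 libraries of a series that also measured alveolar epithelial cells and basophils. The libraries were chosen by their labels alone, 3 for papain and 3 for the untreated state. A further 3 ILC2 libraries, from mice given papain and FK506, entered only the filter on low values, the scaling and the estimate of spread. The papain group came from wild-type C57BL/6 mice aged 8 weeks that received papain through the nose at 50 µg per day. The untreated group came from wild-type C57BL/6 mice of the same age that received no papain. The protocol in the labels describes papain within a 3-day course of FK506 and does not set out the schedule of mice given papain alone. The labels state neither the number of mice behind a library nor the antibodies and gates of the sort, so p-values measure the spread between these samples, part of which may be technical. RNA was read from the 3' ends of transcripts after amplification from 10 ng of total RNA. Papain replicates 1 and 2 and untreated replicates 1 and 2 carry 1 file code, and replicate 3 of each group carries another. Each comparison was therefore made over all 6 libraries and within each code.

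ILC2 reside in the lung and make type 2 cytokines without antigen receptors. Papain, a plant cysteine protease, injures the airway lining, which releases the alarmins IL-33 and TSLP and so activates ILC2 through the IL-33 receptor ST2 (gene Il1rl1) and the TSLP receptor. Activated ILC2 secrete IL-5, which feeds eosinophils, and IL-13, which drives mucus production. Within the cell, calcium acts through calcineurin and the transcription factor NFAT, alongside AP-1 and NF-kB, while GATA3 and RORα hold the identity of the lineage. AP-1 is a dimer of FOS and JUN proteins. Its genes belong to the immediate early genes, which are transcribed within minutes of a stimulus.

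The replicate 3 libraries stood apart from the others in both groups. The deposited values, which are whole numbers on the CPM scale (counts relative to sequencing depth), summed to 608661 to 612929 in the papain libraries and to 519168 to 547473 in the untreated libraries. The pattern of low values placed the depth at about 1610000, 1440000 and 904000 reads in papain replicates 1 to 3 and at 1490000 and 1360000 in untreated replicates 1 and 2. It gave no clear answer for untreated replicate 3. These depths hold only if the divisor is the usual one of the CPM scale, which no label states. Of 6271 genes tested, 762, 1256 and 3550 were listed at 0 in papain replicates 1 to 3, against 749, 776 and 2965 in untreated replicates 1 to 3. Even Gapdh, used by every cell, was listed at 12, 0 and 0 with papain and at 9, 0 and 39 in untreated ILC2, so a listed 0 was not read as absence of the transcript. Log2 values of replicates 1 and 2 correlated across genes at 0.58 to 0.623 within a group and at 0.559 to 0.625 between groups, and replicate 3 correlated with them at 0.305 to 0.359. Genes are not independent replicates.

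Markers of other lung cells were found mostly in replicate 3. Type 2 alveolar epithelial markers (14 genes) summed to 367, 119 and 7375 in papain replicates 1 to 3 and to 15, 214 and 5092 in untreated replicates 1 to 3. Airway secretory and ciliated markers (17 genes) summed to 47, 145 and 3 with papain and to 15, 33 and 38798 in untreated ILC2, so that untreated replicate 3 alone held the club cell genes Scgb1a1 (24968) and Cyp2f2 (1782). Macrophage, monocyte and dendritic cell markers (20 genes) summed to 76, 219 and 2041 with papain and to 43, 154 and 2610 in untreated ILC2. Neutrophil markers (13 genes) summed to 47, 4 and 720 with papain and to 3, 36 and 2979 in untreated ILC2, and fibroblast and smooth muscle markers (18 genes) to 143, 187 and 2006 and to 69, 278 and 5080. T cell markers went the other way between codes, with sums over 11 genes of 659, 1118 and 0 with papain and of 591, 234 and 61 in untreated ILC2. The 45S ribosomal RNA precursor Rn45s took 19.28, 17.5 and 10.14% of the listed values in the papain libraries and 14.86, 16.14 and 2.773% in the untreated libraries. The part of other cells and of Rn45s in the differences was not tested. Values within replicates 1 and 2 are given separately, but those libraries also held markers of other cells and Rn45s. In bulk samples a smaller share of cells of a type and less RNA per cell cannot be told apart.

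**Figure D1:**
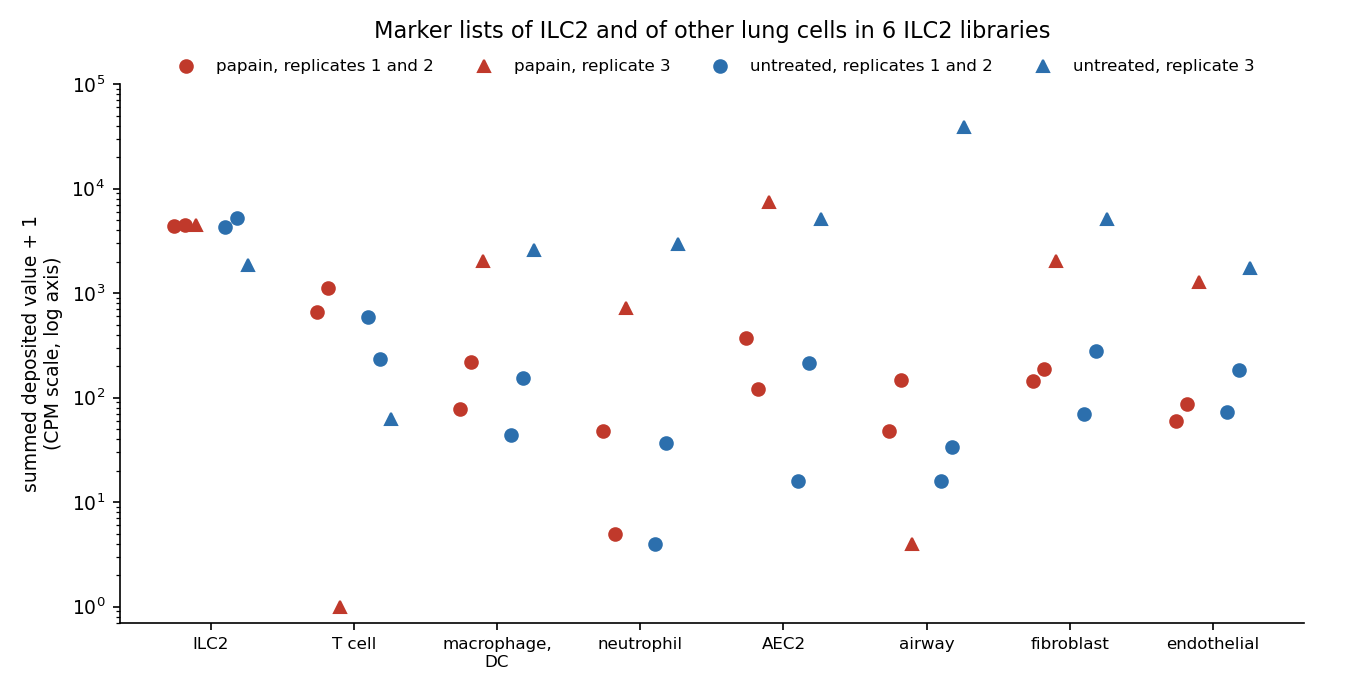
Summed deposited values (CPM scale, plus 1, log axis) of marker lists in each of the 6 ILC2 libraries, with papain in red left of untreated in blue, circles for replicates 1 and 2 and triangles for replicate 3. Markers of macrophages, neutrophils, type 2 alveolar cells, fibroblasts and endothelium were high in replicate 3 of both groups, and airway markers reached 38798 in untreated replicate 3 alone.

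The label was checked against 18 ILC2 markers, which summed to 4395, 4505 and 4526 in the papain libraries and to 4286, 5269 and 1859 in the untreated libraries. The IL-7 receptor chain gene Il7r stood at 396, 476 and 879 with papain and at 403, 271 and 280 in untreated ILC2. Thy1, a surface marker of innate and adaptive lymphocytes, stood at 435, 474 and 55 with papain and at 532, 492 and 111 in untreated ILC2. The inhibitory receptor gene Klrg1 stood at 240, 242 and 282 against 43, 216 and 219. Of the 18 markers, 2, 2 and 7 were listed at 0 in papain replicates 1 to 3, and 1, 2 and 7 in untreated replicates 1 to 3. Ptgdr2, which encodes the prostaglandin D2 receptor CRTH2 of ILC2, was listed at 0 in all 6 libraries, and the neuromedin U receptor gene Nmur1 at 14 in untreated replicate 1 and at 0 elsewhere.

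Across all genes, no difference between papain and untreated ILC2 was called beyond the spread between these libraries. Limma called 0 of 6271 genes at an adjusted p under 0.05 (0%), while 237 (3.78%) had an unadjusted p under 0.05, 84 of them higher (1.34%) and 153 lower (2.44%) with papain. Within replicates 1 and 2, as 2 libraries against 2, limma likewise called none (0 genes, 0%), and 442 (7.05%) had an unadjusted p under 0.05. The deposited values of the groups did not overlap for 270 genes above (4.31%) and 190 below (3.03%) with papain. After scaling for library composition these counts were 172 above (2.74%) and 246 below (3.92%), so the split by direction moved with the scaling. For single genes, overlap refers to the deposited values unless scaling is named. The median log2 difference of all genes was -0.20 after scaling and -0.05 as deposited. The median half-width of the 95% interval of a log2 difference was 3.32 for 1994 genes with a mean value under 20 and 0.606 for 44 genes with a mean of 1000 or more, which sets what these libraries could show.

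The 8 genes with the smallest p in the lower direction held 3 AP-1 subunit genes. Junb (GRCm38 chromosome 8, 84974484 to 84978718) stood at 6073, 6067 and 2769 in papain replicates 1 to 3 and at 7535, 8482 and 4736 in untreated replicates 1 to 3. Papain lay below untreated within each code, although papain replicates 1 and 2 exceeded untreated replicate 3. The log2 difference was -0.77 (SE 0.16, limma adjusted p = 0.0773). Fosl2 (chromosome 5, 32135801 to 32157842), the FOS family member FRA-2, stood at 666, 441 and 159 with papain and at 1188, 1450 and 1037 in untreated ILC2, with no overlap (-1.99, SE 0.44, adjusted p = 0.0988). Fosb (chromosome 7, 19302696 to 19310051) stood at 380, 312 and 265 with papain and at 1070, 794 and 1071 in untreated ILC2, again with no overlap (-1.86, SE 0.46, adjusted p = 0.236). Its difference was alike in size in both codes, at -1.62 in replicates 1 and 2 and -2.34 in replicate 3. None of the 3 passed the threshold.

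The promoter windows of these genes and of Fos are shown because cAMP response elements there are textbook entry points of signalling to immediate early genes. Each window runs from 250 bases before to 50 bases after a RefSeq start (GRCm38.p6), 5′ to 3′ on the gene's strand. It is chr8:84978699-84978998 (minus) for Junb, chr7:19309996-19310295 (minus) for Fosb, chr12:85473640-85473939 (plus) for Fos and chr5:32136222-32136521 (plus) for Fosl2. Capitals mark the core of the cAMP response element, TGACG on either strand, and the TATA box, TATAAA on either strand.
Junb: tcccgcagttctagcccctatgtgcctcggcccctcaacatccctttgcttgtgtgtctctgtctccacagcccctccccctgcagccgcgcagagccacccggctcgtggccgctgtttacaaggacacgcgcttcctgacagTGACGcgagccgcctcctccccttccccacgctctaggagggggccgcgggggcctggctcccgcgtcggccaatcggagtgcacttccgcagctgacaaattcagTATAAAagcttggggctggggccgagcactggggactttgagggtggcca
Fosb: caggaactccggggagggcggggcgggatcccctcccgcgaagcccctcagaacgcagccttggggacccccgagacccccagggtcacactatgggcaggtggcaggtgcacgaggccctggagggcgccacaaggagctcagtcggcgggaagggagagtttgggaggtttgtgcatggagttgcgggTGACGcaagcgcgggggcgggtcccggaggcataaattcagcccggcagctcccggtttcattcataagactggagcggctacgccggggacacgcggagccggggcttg
Fos: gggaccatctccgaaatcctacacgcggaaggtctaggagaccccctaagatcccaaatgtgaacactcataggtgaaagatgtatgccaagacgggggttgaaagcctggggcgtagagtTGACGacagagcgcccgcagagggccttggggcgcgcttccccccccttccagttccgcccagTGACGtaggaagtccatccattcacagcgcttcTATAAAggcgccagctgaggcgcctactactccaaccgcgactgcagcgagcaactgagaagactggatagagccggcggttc
Fosl2: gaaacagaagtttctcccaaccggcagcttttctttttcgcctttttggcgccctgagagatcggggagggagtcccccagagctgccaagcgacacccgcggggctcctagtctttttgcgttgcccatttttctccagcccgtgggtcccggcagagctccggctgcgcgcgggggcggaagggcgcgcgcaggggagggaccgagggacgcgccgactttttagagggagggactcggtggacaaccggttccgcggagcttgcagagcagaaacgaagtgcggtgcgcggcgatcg
Junb and Fosb each held 1 TGACG core and Fos held 2, and neither motif was found in this window of Fosl2. Of 33 tested immediate early genes, 29 had a window in the table, some of them several overlapping ones, and 18 of the 29 (62.1%) held the core, against 1872 of 4914 tested genes with a window (38.1%) and 6228 of all 27025 genes (23%). The full element TGACGTCA, which contains the core, was present in 4 of the 29 genes (13.8%), against 3.76% of tested genes and 2.03% of all genes. The AP-1 site TGANTCA on either strand was present in 2 of the 29 genes (6.9%), against 5.78% of tested genes and 8.97% of all genes. These matches describe letters in a window and not occupied sites.

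Many immediate early genes stood lower with papain, and none higher, within each code. The list held 35 genes, of which 33 passed the filter on low values. After scaling, papain lay below untreated within each code for 14 of the 33 members (42.4%), against 6.94% of all genes tested, and above for 0 members, against 4.94% of all genes. Within replicates 1 and 2, papain lay below for 21 members (18.8% of all genes) and above for 0 (16% of all genes). The median log2 difference of the members was -0.77 against -0.20 for all genes, and within replicates 1 and 2 it was -0.87 against -0.08. In replicate 3 it was -0.39 against 0, with 20 members negative and 12 positive, while 28 of the 33 were negative in replicates 1 and 2. Of all 6271 genes, 2411 were negative in replicate 3 (38.4%) and 1820 positive (29%). The rest showed no difference, as did only 1 member, so these shares and the median of 0 are not like for like with the list. Among genes that differed in replicate 3, negative ones outnumbered positive ones both in the list and over all genes. As deposited, with no scaling, 11 members lay below within each code (4.93% of all genes) and 0 above (6.68% of all genes). Among genes with a mean of at least 100 over the 6 libraries, where low values weigh less, 14 of 25 members lay below within each code, against 10.4% of 991 genes. The median difference of the list was more negative in replicates 1 and 2 than in replicate 3. In replicates 1 and 2 neutrophil markers summed to 47 and 4 with papain and to 3 and 36 in untreated ILC2. T cell markers summed there to 659 and 1118 with papain and to 591 and 234 in untreated ILC2. The part of other cells in the lower values of this list was not tested. No member passed the limma test.

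**Figure D2:**
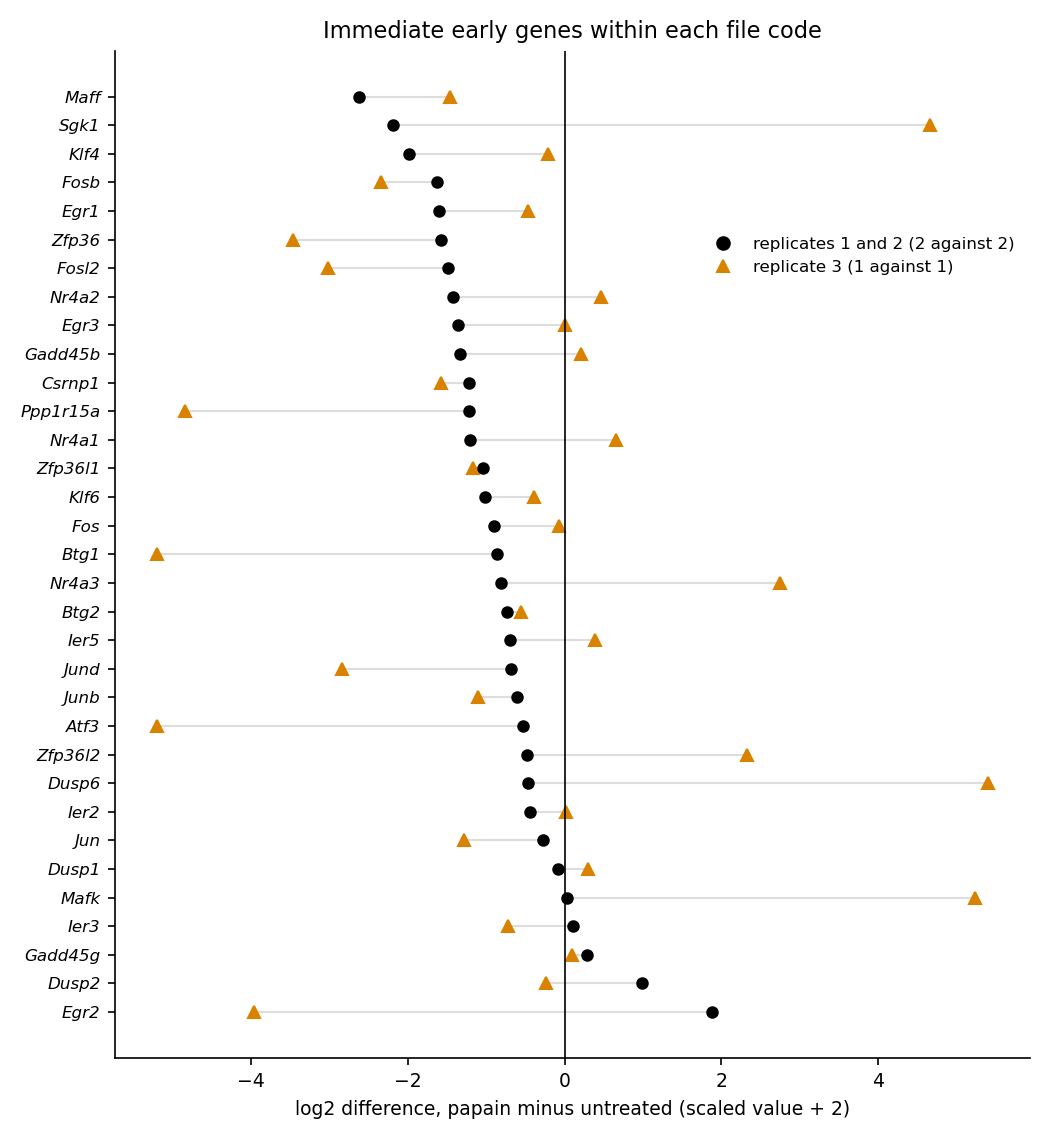
Log2 difference, papain minus untreated, of the 33 tested immediate early genes, as circles for replicates 1 and 2 and triangles for replicate 3. In replicates 1 and 2, 28 of the 33 genes lay below 0, and in replicate 3 there were 20 below and 12 above.

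Among the AP-1 subunits the members did not move alike. Jund, a constitutively expressed JUN member, stood at 475, 429 and 83 with papain and at 671, 591 and 484 in untreated ILC2, with no overlap (log2 difference -1.40, SE 0.59, adjusted p = 0.986). Fos stood at 257, 297 and 446 with papain and at 420, 481 and 371 in untreated ILC2, so that deposited values were lower with papain in replicates 1 and 2 and higher in replicate 3, where scaling turned the difference to -0.07. Jun stood at 1372, 832 and 774 with papain and at 961, 1311 and 1493 in untreated ILC2, with overlapping groups. Fosb, Fosl2, Junb and Jund lay below untreated within each code with and without scaling, and Jun in neither.

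The members outside AP-1 that were lower included regulators that end a response. Zfp36 encodes tristetraprolin, which destabilises cytokine mRNAs, and stood at 77, 83 and 25 with papain against 172, 254 and 241 in untreated ILC2. Ppp1r15a encodes GADD34, which restores translation after stress, and stood at 212, 240 and 21 with papain against 465, 449 and 542 in untreated ILC2. Neither pair of groups overlapped. Together with Fosb and Fosl2 they were the 4 members, of 33, whose groups did not overlap and whose means differed by at least 2 times in each code (2.38% of all genes). The related mRNA decay gene Zfp36l1 stood at 389, 411 and 116 against 701, 726 and 210, lower within each code. The Krüppel-like factor gene Klf6 stood at 476, 397 and 485 against 852, 676 and 505. The deposited values of Klf6 did not overlap, and after scaling they overlapped across codes. Klf4, another gene of that family, stood at 415, 129 and 466 against 737, 865 and 428, and the growth arrest gene Gadd45b at 433, 570 and 522 against 925, 1277 and 358, both lower with papain in replicates 1 and 2 and higher as deposited in replicate 3. Dusp1, which encodes a phosphatase of MAP kinases, overlapped, at 580, 365 and 741 against 442, 400 and 479. The orphan nuclear receptor gene Nr4a1 showed the opposite between codes, at 330, 214 and 2497 with papain and at 615, 458 and 1259 in untreated ILC2.

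**Figure D3:**
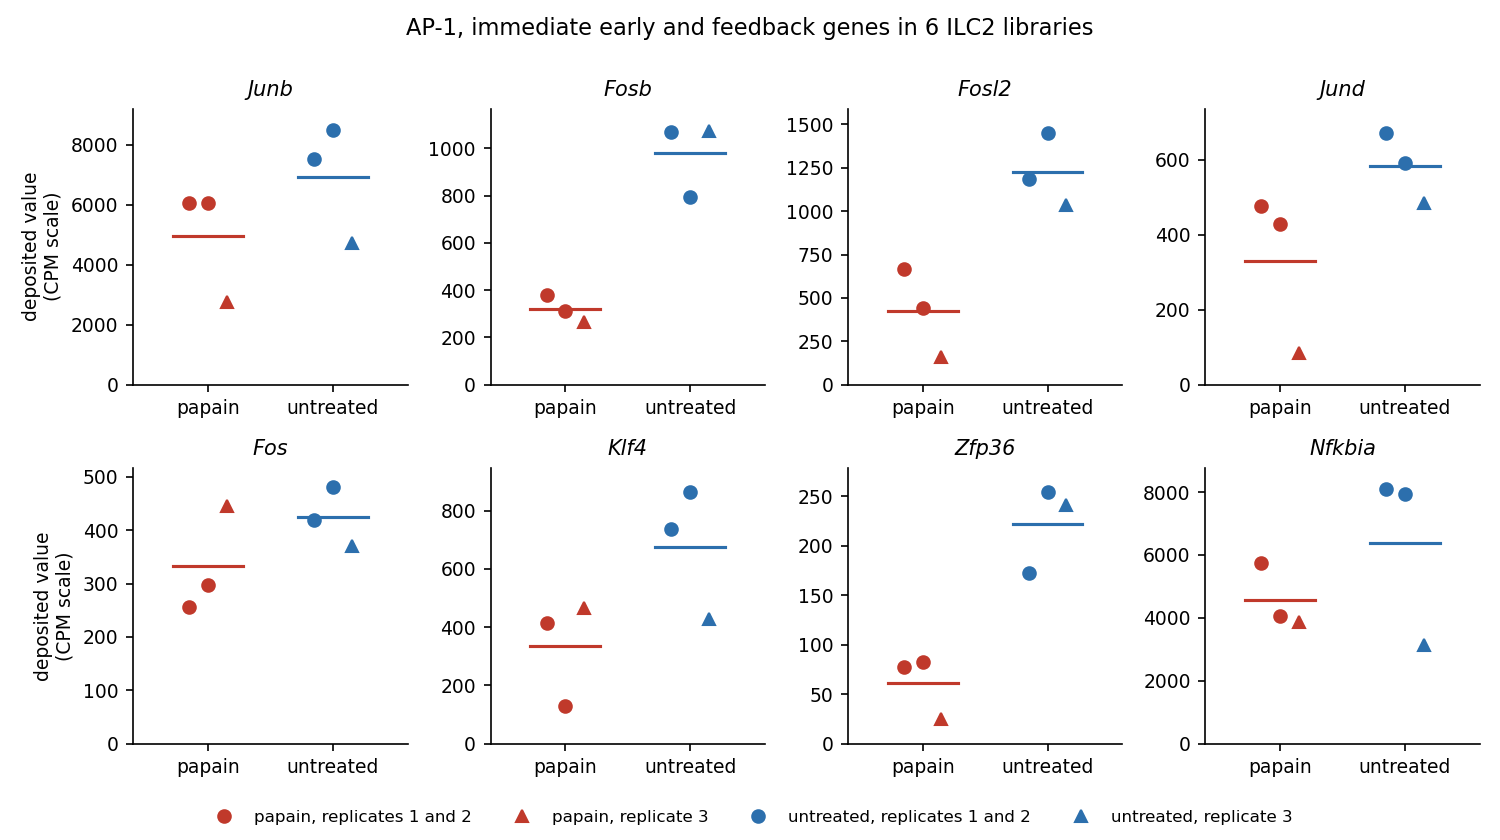
Deposited values (CPM scale, axes from 0) of 8 AP-1, immediate early and feedback genes in the 6 ILC2 libraries, with papain in red left of untreated in blue, circles for replicates 1 and 2, triangles for replicate 3 and bars for group means. Fosb, Fosl2, Jund and Zfp36 did not overlap between groups, and the other 4 genes overlapped through replicate 3.

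Among genes of NF-kB and its feedback, 2 inhibitor genes stood lower in replicates 1 and 2. Nfkbia, which encodes IκBα and is itself an NF-kB target, stood at 5754, 4062 and 3883 with papain and at 8103, 7947 and 3131 in untreated ILC2, a log2 difference of -0.94 within replicates 1 and 2 and of -0.03 in replicate 3 (over all 6, -0.64, SE 0.18, adjusted p = 0.640). Nfkbiz, which encodes the nuclear inhibitor family member IκBζ, stood at 286, 230 and 323 against 399, 502 and 382, with no overlap. Of 21 tested NF-kB genes, papain lay below within each code for 5 (6.94% of all genes) and above for 1 (4.94%). As deposited, 1 lay below and 1 above, so this count rests on the scaling. Within replicates 1 and 2 papain lay above for 3 and below for 8 after scaling (16% and 18.8% of all genes), and above for 3 and below for 3 as deposited (20% and 14.4%).

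Beside these genes stood other transcripts of acute responses and nuclear RNA. The neutrophil chemoattractant gene Cxcl2 stood at 1141, 596 and 4398 with papain and at 1419, 1823 and 6063 in untreated ILC2, lower within each code and highest in replicate 3, where neutrophil and macrophage markers were also highest (log2 difference -1.05, SE 0.25, adjusted p = 0.166). Whether other cells supplied it was not tested. The long nuclear RNA Malat1 stood at 4889, 6014 and 10943 with papain and at 8235, 7841 and 19699 in untreated ILC2, lower within each code (-0.91, SE 0.20, adjusted p = 0.0829). The survival kinase gene Pim3 stood at 179, 268 and 0 against 546, 415 and 388, and the stress transcription factor gene Atf4 at 355, 299 and 0 against 536, 450 and 653. For Pim3 and Atf4 the groups did not overlap, and papain replicate 3 was the lowest library. Srsf5, which encodes a splicing factor, stood at 220, 194 and 285 against 493, 512 and 702, without overlap and with a difference of similar size in both codes (-1.48 and -1.63).

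Il13 and a few other type 2 effector genes stood higher with papain. Il13 (chromosome 11, 53631324 to 53634702) stood at 386, 182 and 66 in papain replicates 1 to 3 and at 30, 56 and 0 in untreated replicates 1 to 3. Every papain value exceeded every untreated value as deposited, and the log2 difference was 2.44 in replicates 1 and 2 and 3.15 over all 6 (SE 1.31, adjusted p = 0.986). Arg1, which encodes the arginine-degrading enzyme arginase 1 that ILC2 hold in the resting lung, stood at 402, 365 and 728 with papain and at 128, 361 and 1 in untreated ILC2 (2.90, SE 1.04, adjusted p = 0.986). Papain replicate 2 and untreated replicate 2 were nearly equal, and the value of 1 in untreated replicate 3 made most of the difference, which was 0.62 in replicates 1 and 2. Areg, the amphiregulin gene of tissue repair, stood at 250, 184 and 649 against 71, 176 and 64. Arg1 and Areg overlapped within replicates 1 and 2 after scaling, and Il13 overlapped across codes, since scaled papain replicate 3 fell below untreated replicate 2.

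Other secreted factors gave low values. Il5 stood at 65, 45 and 0 with papain and at 33, 14 and 0 in untreated ILC2, and Csf2, which encodes GM-CSF, at 34, 54 and 1 against 17, 31 and 0. Both were higher with papain in replicates 1 and 2 as deposited, but Csf2 overlapped after scaling. Hbegf, which encodes another ligand of the epidermal growth factor receptor, was listed at 0 in all 3 papain libraries and at 13, 16 and 13 in the untreated libraries. Il4, Il9, Il3 and Il10 were listed at 0 in all 6 libraries. Of 24 genes in the list 14 were tested, and papain lay above within each code for 2, Il13 and the chemokine gene Ccl1 (4.94% of all genes), and below for Hbegf alone (6.94%). As deposited papain lay above for 4, with Areg and Csf2 added (6.68% of all genes), and below for Hbegf (4.93%).

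**Figure D4:**
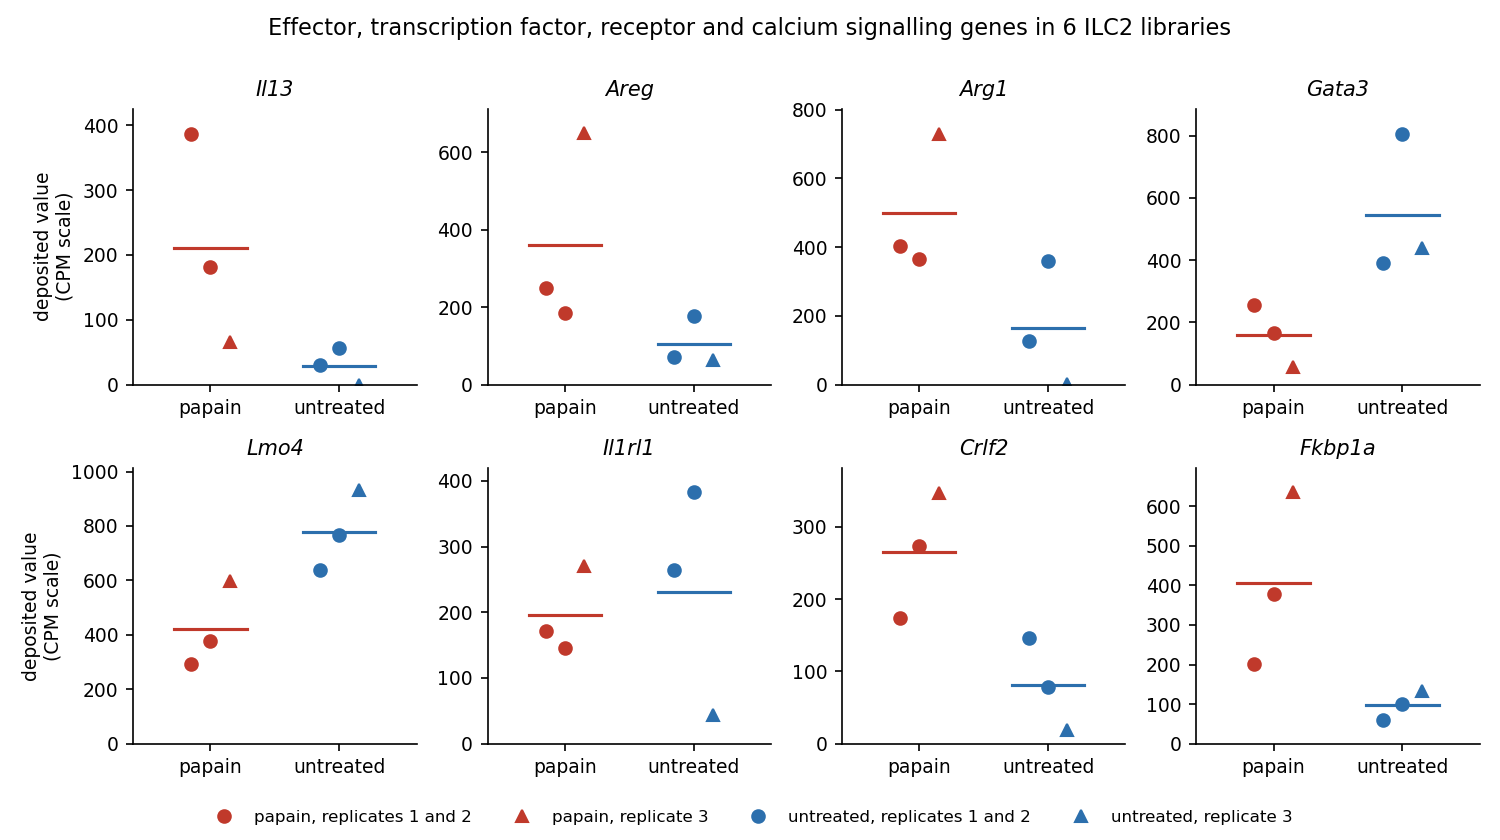
Deposited values (CPM scale, axes from 0) of 8 effector, transcription factor, receptor and calcium signalling genes in the 6 ILC2 libraries, with papain in red left of untreated in blue, circles for replicates 1 and 2, triangles for replicate 3 and bars for group means. As deposited, every papain value of Il13, Areg, Arg1, Crlf2 and Fkbp1a lay above and every papain value of Gata3 and Lmo4 below the untreated values, while Il1rl1 overlapped.

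Receptors showed no common direction. Il1rl1, which encodes the IL-33 receptor ST2, stood at 172, 145 and 271 with papain and at 264, 383 and 44 in untreated ILC2. It was lower with papain in replicates 1 and 2 (log2 difference -1.21) and higher in replicate 3 (2.23). Crlf2, the TSLP receptor chain gene, stood at 174, 274 and 347 with papain and at 146, 79 and 19 in untreated ILC2, with no overlap (1.77, SE 0.82, adjusted p = 0.986). Il2rg, the common gamma chain gene, stood at 1223, 1281 and 546 against 833, 844 and 220, higher within each code. The costimulatory receptor gene Icos stood at 331, 588 and 534 against 495, 469 and 11, where the separation lay in replicate 3.

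Of 18 tested alarmin and cytokine receptor genes, papain lay above within each code for 2, Crlf2 and Il2rg (4.94% of all genes), and below for 1, the IL-17 receptor gene Il17ra (6.94% of all genes), after scaling. Of 23 tested neuropeptide, lipid and costimulatory receptor genes, it lay above for 3 (Tnfrsf9, Tnfrsf25 and Ctla4) and below for 4 (Cd69, Thy1, Icosl and Ptgir), against the same shares of all genes. As deposited the first of these lists had 2 above and 0 below, and the second 4 above and 3 below, with Klrg1 gained and Ptgir lost (6.68% and 4.93% of all genes). Tnfrsf25 encodes the receptor DR3 for the ligand TL1A and stood at 94, 195 and 124 with papain against 58, 43 and 0 in untreated ILC2. Of 20 tested chemotaxis and residence genes, it lay above for 3, among them the sphingosine phosphate receptor gene S1pr4 (116, 200 and 182 against 44, 72 and 39) and the gut-homing integrin gene Itgb7 (511, 582 and 1018 against 368, 356 and 143), and below for 1, Cxcr4, with the same counts as deposited. These genes are also used by T cells, whose marker Cd3d stood at 186, 416 and 0 with papain and at 171, 125 and 25 in untreated ILC2. The part of T cells in these values was not tested.

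After scaling, transcription factors of the lineage were lower more often than higher. Gata3 (chromosome 2, 9857078 to 9890034) stood at 255, 166 and 56 with papain and at 391, 807 and 440 in untreated ILC2, without overlap (log2 difference -2.18, SE 0.92, adjusted p = 0.986). Lmo4, which encodes a LIM domain cofactor, stood at 293, 377 and 598 with papain and at 637, 766 and 933 in untreated ILC2, also without overlap and with near equal differences in both codes (-1.28 and -0.97). Rora stood at 634, 752 and 603 against 892, 1015 and 418 and Id2, the inhibitor of DNA binding required by all innate lymphoid cells, at 424, 551 and 403 against 649, 581 and 150. Both were lower with papain in replicates 1 and 2 and higher in replicate 3. The Notch target gene Hes1 stood at 102, 84 and 595 against 403, 377 and 502. Of 22 tested factors papain lay below within each code for 5 after scaling (6.94% of all genes), namely Gata3, Lmo4, Hes1, Ets1 and Nfil3. It lay above for 1, Tox (4.94%). As deposited papain lay below for 2, Gata3 and Lmo4 (4.93% of all genes), and above for 1 (6.68%), so the count below rests largely on the scaling.

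Genes of calcium signalling included members that were higher. Fkbp1a encodes FKBP12, the protein through which FK506 blocks calcineurin, and stood at 201, 379 and 635 with papain and at 61, 99 and 132 in untreated ILC2 (log2 difference 1.70, SE 0.78, adjusted p = 0.986). It did not overlap between groups and stood at least 2 times higher in each code. Calm3 stood at 159, 192 and 175 against 130, 140 and 97. Both were among the 3 of 15 tested members of the calcineurin and NFAT list for which papain lay above within each code (4.94% of all genes), with 0 below (6.94%), and the counts were the same as deposited. The catalytic subunit gene Ppp3ca stood at 70, 47 and 675 against 134, 124 and 513, and the feedback gene Rcan1, a target of NFAT, at 0, 29 and 188 against 0, 7 and 17.

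Some cytoskeletal and calcium-binding protein genes also stood higher. Actb, which encodes cytoplasmic actin, had the smallest p in the higher direction and stood at 5094, 5123 and 4865 with papain and at 3482, 2909 and 2023 in untreated ILC2 (log2 difference 0.63, SE 0.20, adjusted p = 0.986). The deposited values of Actb did not overlap, and after scaling they overlapped across codes. S100a4 stood at 4098, 4011 and 1482 against 2731, 2751 and 346 and S100a6 at 1481, 2043 and 1276 against 1292, 832 and 886, both higher within each code and with overlap across codes. Rac2, which encodes the GTPase of actin dynamics in blood cells, stood at 695, 673 and 930 against 280, 388 and 150, and Iqgap1, which encodes a scaffold for such GTPases, at 406, 422 and 585 against 211, 152 and 102. Neither overlapped between groups. Cd52, which encodes a small surface glycopeptide of lymphocytes, stood at 780, 998 and 1615 against 508, 332 and 507. In the S100, galectin and annexin list, papain lay above within each code for 4 of 19 members (4.94% of all genes) and below for 0 (6.94%). As deposited it lay above for 7 (6.68% of all genes). In replicate 3 the list had a median log2 difference of -0.25 after scaling, with 9 members positive and 10 negative.

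Other genes stood higher by at least 2 times in each code. Pdia3, which encodes a disulfide isomerase of the endoplasmic reticulum, stood at 424, 344 and 498 with papain and at 145, 187 and 95 in untreated ILC2. Ddit4, which encodes the mTOR inhibitor REDD1, stood at 242, 331 and 753 against 114, 121 and 221, and Ywhae, a 14-3-3 protein gene, at 324, 233 and 459 against 103, 144 and 179. Of the genes with the smallest p in the higher direction, Sec24c, which encodes a coat protein of secretory vesicles, stood at 112, 125 and 269 against 13, 26 and 1. Ndufb5, a subunit gene of respiratory complex I, stood at 230, 174 and 605 against 86, 93 and 0. None of these groups overlapped, and none of these genes passed the limma test (adjusted p = 0.986 each). In all, 160 genes lay above (2.55%) and 149 below (2.38%) by this rule.

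Cell cycle genes had low values, and more of the tested ones stood higher than lower with papain. Ube2c, which encodes the ubiquitin-conjugating enzyme of mitotic exit, stood at 73, 13 and 98, and the kinase gene Plk1 at 37, 47 and 122, in papain libraries, and both were listed at 0 in all 3 untreated libraries. Mcm3, which encodes a subunit of the replicative helicase, stood at 48, 44 and 230 with papain and at 14, 22 and 0 in untreated ILC2. These were the 3 of 35 tested members, from a list of 61, for which papain lay above within each code (4.94% of all genes), with 0 below (6.94%). Among the 6 libraries, Ube2c and Plk1 reached the filter level of 10 only with papain, so their direction is not separate support. Members that passed the filter in this way also enter the other counts of this list. The proliferation marker Mki67 stood at 41, 36 and 0 against 25, 1 and 0, and Pcna, the sliding clamp of replication, at 0, 22 and 0 against 54, 23 and 0. Over all 6 libraries 23 of the 35 members had a positive log2 difference, against 2734 of all 6271 genes. Among the 5 members with a mean of at least 100 over the 6 libraries, 1 was positive and 4 were negative. Their median log2 difference was -0.37, against -0.04 for the 991 genes at that level, and 0 lay above or below within each code. Of the 35 members, 14 were listed at 0 in both replicate 3 libraries. Within replicates 1 and 2, papain lay above for 12 members (16% of all genes) and below for 4 (18.8%), with a median log2 difference of 0.63 against -0.08 for all genes. As deposited, papain lay above in replicates 1 and 2 for 16 members (20% of all genes) and below for 3 (14.4%). The summed deposited values of the list were 2443, 2470 and 2246 with papain and 1399, 1855 and 1214 in untreated ILC2, without overlap. After scaling the sums overlapped across codes, since papain replicate 3 fell below untreated replicates 1 and 2.

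Genes of protein synthesis and respiration depended on the scaling. Of 65 tested cytosolic ribosomal protein genes papain lay above within each code for 9 and below for 4 after scaling (4.94% and 6.94% of all genes), and for 20 above and 1 below as deposited (6.68% and 4.93%). Their median log2 difference was 0.03. Of 50 tested nuclear genes of oxidative phosphorylation, 6 lay above and 2 below after scaling, and 13 above and 2 below as deposited, against the same shares of all genes. Cox7b, a subunit gene of cytochrome oxidase, stood at 256, 315 and 189 with papain and at 126, 91 and 3 in untreated ILC2, without overlap (2.41, SE 0.89, adjusted p = 0.986).

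**Figure D5:**
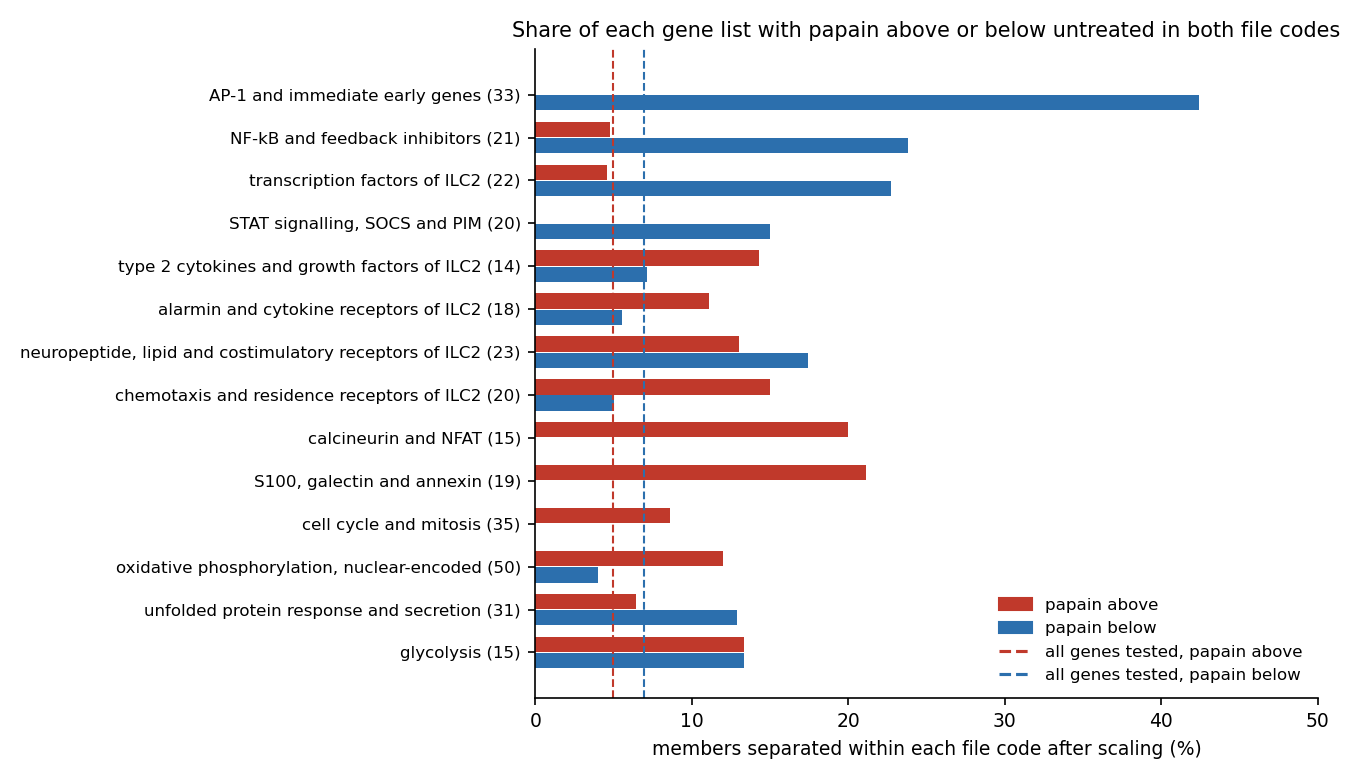
Percentage of tested members of 14 gene lists (number tested in brackets) for which papain lay above (red) or below (blue) untreated within each file code after scaling, with dashed lines for all 6271 genes. Immediate early genes reached 42.4% below and 0% above, against 6.94% and 4.94% of all genes.

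The papain difference was also compared between the codes. An interaction of treatment and file code was called by limma for 46 of 6271 genes (0.734%), of which 16 were more positive and 30 more negative in replicate 3. Of these genes 39 were listed at 0 in 1 of the replicate 3 libraries, 28 of them in papain replicate 3 and 11 in untreated replicate 3, while their lowest value in replicates 1 and 2 was 9. The test treats the single replicate 3 library of each group as varying like the others. Icos, Pim3 and Atf4 were among the 46. With the 6 papain and untreated libraries alone in the fit, limma called 0 genes for the interaction, which leaves 2 residual degrees of freedom.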

How the data were processed

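RNA of sorted lung ILC2 was read by 3' end sequencing. Among tools and builds, STAR 2.7.0c with featureCounts 1.6.0 and mm10 with GRCm38.p6 are listed, without roles, per the submitters' processing notes. The authors deposited score values, 1 file per library, that are whole numbers on the CPM scale. The spacing of low values is that of reads times a step that is not whole, rounded afterwards, and no label states the divisor. Depth was estimated approximately from this spacing.

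Deposited values were divided by a trimmed mean (TMM) factor, with 30% of log ratios and 5% of mean levels trimmed, and analysed as log2(value + 2) with limma 3.58.1 in R 4.3.3, so that folds of low genes are understated. The fit held 9 ILC2 libraries, 3 of them from mice given papain and FK506, with file code as a covariate. Those 3 libraries added to the estimate of spread and also entered the filter and the scaling factors. Their replicates 1 to 3 held 2774, 925 and 1044 tested genes at 0, and Rn45s took 3.962, 18.96 and 6.31% of their listed values. Genes with at least 10 in at least 3 of the 9 libraries were tested (6271 of 20049 listed), and 27 genes without a value in replicate 3 were dropped. Adjustment was by Benjamini-Hochberg at 0.05 over all tested genes. Exact permutation of 3 against 3 cannot go below p = 0.1 and was not used. The analysis was tested on simulated data.

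Papain was said to lie above or below within each code where both replicates 1 and 2 exceeded or fell short of both untreated ones and replicate 3 differed the same way. Named were up to 8 genes per direction with the smallest p, up to 8 without overlap and with 2 times difference in each code, list members of ILC2 effectors, receptors and factors, and a few members of other lists. Immediate early genes beyond these, and Cox7b, Pcna, Rcan1 and Ppp3ca, were chosen after their values were seen. The libraries, lists and tests were chosen with earlier results of these data known. Promoter sequences are from RefSeq (GRCm38.p6). Alternatives covered scaling, pseudocount, filters, covariates, weights and left-out libraries.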

Additional observations from a re-analysis of the deposited data

Results flagged for a closer look

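The papain difference was larger or smaller in replicate 3 than in replicates 1 and 2 by a test of the interaction of treatment and file code for 46 genes (limma, 16 positive and 30 negative), and 6 of the genes named here were among them. The interaction is the replicate 3 difference minus that of replicates 1 and 2, on the log2 scale. It was 6.79 for Ndufb5, which stood at 605 in papain replicate 3 and at 0 in untreated replicate 3. It was 7.55 for the ribosomal protein pseudogene Rpl14-ps1, which stood at 215, 175 and 742 with papain and at 121, 119 and 0 in untreated ILC2, and which shares sequence with its parent gene, so its value is uncertain. It was 5.34 for Icos, at 534 in papain replicate 3 and 11 in untreated replicate 3. It was -6.11 for Pim3, -7.38 for Atf4 and -7.48 for Irf1, which were all listed at 0 in papain replicate 3 and at 388, 653 and 497 in untreated replicate 3. In each of the 6 genes a replicate 3 library at 0 or 11 set the size of the interaction, and replicate 3 was 1 library per group. Whether other cells or depth had a part was not tested.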

How the results depend on the processing

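The count of 0 genes called by limma moved with some settings, and the cause was not tested. It was 2 with a pseudocount of 10 (Rn45s and Malat1), 3 as deposited (Rn45s, Actb and Malat1), 1 when scaled to the same sum (Malat1), 2 with a median of ratios (Malat1 and Junb) and 1 without the file code term (Rn45s). It was 8, all lower, with robust variances (among them Fosl2, Junb, Cxcl2, Pim3, Fosb, Ppp1r15a and Nfkbia), 7 with library weights (1 higher and 6 lower), and 2 of 110 genes with a mean of 500 or more, a filter chosen after seeing the data (Fosb and Fosl2). It stayed at 0 with a pseudocount of 0.5, no filter, a minimum of 50, TMM without other-cell markers, 6 libraries only, replicates 1 and 2 only and no variance trend. Leaving out 1 library gave 0 to 5 genes, with 5 without papain replicate 1, 2 without papain replicate 2, 3 without untreated replicate 1 and 0 otherwise. With the replicate block it was 2 (Malat1 and Junb). Replicate numbers gave no sign of pairing the libraries. Deviations of same-numbered libraries from their group means correlated at 0.117, 0.0658 and 0.199, but these also share the file code. The difference of replicate 1 minus replicate 2, which lies within 1 code, correlated between groups at -0.0016. The interaction count of 46 was 0 with 6 libraries only.

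Genes without overlap above, 270 as deposited, were 172 with TMM, 172 with TMM without other-cell markers, 209 at the same sum and 191 with a median of ratios.

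For 54 genes, 1133 combinations of gene and setting were compared with the main fit. Of these combinations, 1070 kept their direction and side of the threshold, 31 passed it, 0 lost it and 32 turned sign. Lif was -0.86 in replicates 1 and 2. Calca was -0.0921 with a pseudocount of 10, -2.07 in replicates 1 and 2 and -1.16 with weights. Tnfsf8 was 0.59 in replicates 1 and 2 and 0.14 with weights. Il1rl1 was 0.19 as deposited and 0.00276 at the same sum, Id2 0.24 and 0.0538, and Icos -0.34 in replicates 1 and 2. Leaving out 1 library gave -1.96 to 0.36 for Tnf, -0.87 to 2.46 for Lif, -1.85 to 1.19 for Calca, -2.81 to 0.76 for Tnfsf8, -1.76 to 0.64 for Il1rl1, -0.33 to 0.90 for Il17rb, -0.22 to 0.89 for Il7r, -0.11 to 2.21 for Icos, -1.30 to 0.38 for Thy1, -0.40 to 2.19 for Klrg1, -0.48 to 0.22 for Id2 and -2.74 to 0.0501 for Cxcr6.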

Other observations

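Genes of metabolism and stress gave small counts. Of 19 tested lipid metabolism genes papain lay above within each code for 3 (4.94% of all genes) and below for 1 (6.94%). Fasn, which encodes fatty acid synthase, stood at 147, 70 and 195 with papain and at 15, 35 and 5 in untreated ILC2, without overlap (log2 difference 2.72, SE 1.31, limma adjusted p = 0.986). Cpt1a, which encodes the gate of fatty acid entry into mitochondria, stood at 2, 19 and 0 with papain and at 32, 49 and 32 in untreated ILC2, also without overlap. Of 15 tested glycolysis genes, 2 lay above (4.94% of all genes) and 2 below (6.94%). Neither Fasn nor Cpt1a passed the test.

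Of 14 tested interferon-response genes 0 lay above (4.94% of all genes) and 3 below (6.94%) within each code after scaling. As deposited 0 lay above (6.68% of all genes) and 1 below (4.93%), so this count rests on the scaling. Irf1, which encodes an interferon-induced transcription factor, stood at 221, 213 and 0 with papain and at 251, 216 and 497 in untreated ILC2, with most of its separation in replicate 3 and, as deposited, overlap in replicates 1 and 2. Of 31 tested genes of the unfolded protein response, 2 lay above (4.94% of all genes) and 4 below (6.94%) after scaling, and 2 above (6.68%) and 3 below (4.93%) as deposited. The chaperone gene Hspa5 stood at 788, 710 and 408 with papain and at 744, 856 and 1015 in untreated ILC2, with overlapping groups.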
